A study of Mus musculus with 2 samples.

Results

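The AP-1 transcription factors examined here are 10 genes chosen by name: Fos, Fosb, Fosl1 and Fosl2 of the FOS subfamily, Jun, Junb and Jund of the JUN subfamily, and Atf3, Batf and Maff, which encode related basic leucine zipper proteins. They are 10 of the 55536 annotated genes in the deposited gene tables and 10 of the 22028 that are protein-coding, and each symbol matched 1 entry. The RNA came from primary bone marrow-derived macrophages of the mouse strain C57BL/6J, which were exposed to lipid A at 100 ng/ml for 12 h, kept without it for 12 h, and exposed again at 100 ng/ml for 25 min. Lipid A is the part of bacterial lipopolysaccharide that the receptor TLR4 recognises, so the design measured cells at an early time after a repeated stimulus. Total RNA from the nucleoplasm, the nuclear content outside chromatin (some labels say only nucleus), was sequenced after removal of ribosomal RNA in 2 libraries, replicates 1 and 2 of a single group. No unstimulated, singly stimulated or whole-cell library was analysed here.

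The labels of both libraries number them as biological replicates, name the same donor entry and give neither sex nor age. They do not say whether separate cultures were used, so the spread between the libraries may be technical. Replicate 1 started from 500 ng of RNA and replicate 2 from 1 µg, so replicate and starting amount cannot be told apart. With 1 group of 2 libraries there was no contrast to test. Flipping signs over so few libraries cannot reach an exact two-sided p below 0.5, so none is given, and all values describe these libraries.

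AP-1 is a dimer of basic leucine zipper proteins that binds short DNA elements in the promoters and enhancers of many inflammatory genes. FOS proteins do not pair stably with each other and need a JUN partner, whereas JUN proteins can also pair among themselves. In macrophages, TLR4 signalling through MAP kinases both switches on several of these genes within minutes as immediate early genes and modifies their proteins, and the mRNAs of many are short-lived.

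The gene tables held 20196408 expected counts in replicate 1 and 19588980 in replicate 2, where an expected count is a read number that the quantification divides among transcripts. The summed TPM (a level per transcript length, scaled to a fixed total in each library) of 7 macrophage markers was 2819 and 2663, all 7 were at 1 TPM or more in both libraries, and Lyz2 and Adgre1, the highest, had mean levels of 1502 and 683 TPM. Of 10 markers of other marrow cells 2 reached 1 TPM in both libraries, namely Alas2 (1.52 and 2.95 TPM) and Pecam1 (2.02 and 1.48 TPM). The summed TPM of those 10 markers was 3.92 and 4.56, and Ly6g, Mpo, Elane and Cd3e were listed at 0 in both. The mitochondrial genome took 5.88% of expected counts in replicate 1 and 3.50% in replicate 2. Its part in the differences between replicates was not tested. In bulk RNA such as this, fewer cells with a transcript and less of it per cell cannot be told apart.

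Most AP-1 genes were well expressed in this fraction, and Junb, an early-response JUN gene, had the highest level. At least 1 TPM in both libraries was found for 8 of the 10 members, against 44.9% of annotated protein-coding genes. The exceptions were Fosb, at 0.27 TPM in replicate 2, and Fosl1, which had no reads. By mean TPM the order was Junb, Fos, Jun, Atf3, Jund, Batf, Fosl2, Maff, Fosb and Fosl1. Neighbours in this order differed beyond the range of the libraries in all but 3 cases. Fos was above Jun in replicate 1 and below it in replicate 2, Fosl2 stood in the same relation to Maff, and Jun was above Atf3 in both libraries with ranges that overlapped. The order of these neighbours is therefore not resolved.

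**Figure D1:**
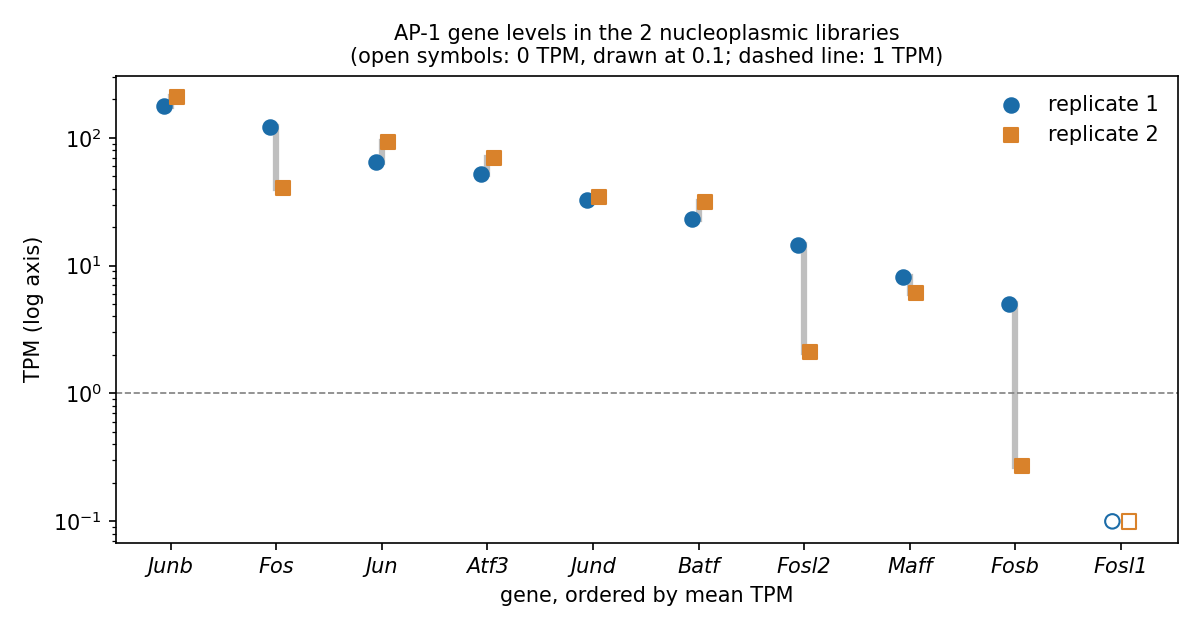
TPM of each AP-1 gene (log axis) in replicate 1 and replicate 2, with members in order of mean TPM; points are libraries, grey lines join the libraries of a gene, and the open symbols of Fosl1, at 0 TPM, are drawn at 0.1. Junb is highest at 177 and 208 TPM, and the points of Fos, Fosl2 and Fosb lie far apart while those of Jund nearly coincide.

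Upstream sequence is shown for the FOS and JUN genes with the highest levels, since elements of these kinds are known to act in early-response promoters. RefSeq promoter windows (GRCm38.p6, 250 bases before the start site and 50 after it) were found for 9 members, in 11 windows, and not for Fosl1. The 150 bases just before the start site follow, 5′ to 3′ on the gene's strand. Capitals mark TGACG, which is the core of the cyclic AMP response element. They also mark TGACATCA, an element known from the Jun promoter. The remaining capitals, TATAAA, are a TATA box.
Fos (chr12:85473740-85473889, plus strand): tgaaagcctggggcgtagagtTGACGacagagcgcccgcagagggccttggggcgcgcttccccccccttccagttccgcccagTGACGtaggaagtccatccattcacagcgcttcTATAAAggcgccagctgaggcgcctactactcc
Jun (chr4:95052223-95052372, minus strand): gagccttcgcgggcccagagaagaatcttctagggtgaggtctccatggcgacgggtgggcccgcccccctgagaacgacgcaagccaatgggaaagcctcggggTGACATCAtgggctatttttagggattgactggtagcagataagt
Junb (chr8:84978749-84978898, minus strand): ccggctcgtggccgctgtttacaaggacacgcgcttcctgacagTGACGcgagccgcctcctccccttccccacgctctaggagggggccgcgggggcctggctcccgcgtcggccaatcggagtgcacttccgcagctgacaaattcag
Each motif was searched on both strands. Positions are counted from the start site, with negative values upstream. In Fos, TGACG began at -129 and -66 and TATAAA at -33. In Jun, TGACATCA began at -45, and in Junb TGACG began at -106. TGACG was present in 7 of the 11 member windows, which belong to 6 members, and in 20.8% of 32851 windows of all genes. TGACATCA was present in the windows of Jun and Maff and in 3.62% of all windows. The full element TGACGTCA, which contains TGACG, was present in Maff and in 1.79% of all windows. The classical AP-1 element TGACTCA was in none of the member windows and in 5.20% of all. TATAAA was in the windows of Fos and Junb and in 13.6% of all, and that of Junb began at 1, past the stretch shown. The RefSeq start of Junb lies upstream of the GENCODE start used for its gene coordinates. That of Jund (chr8:70697739) lies further upstream of its own, and the Jund window ends at 70697788, before the gene coordinates begin at 70698949. A kB element, bound by NF-κB and searched in 1 form of 10 letters, was in none of the members' windows and in 0.155% of all. These matches describe letters in a window and not bound sites.

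The 3 FOS subfamily genes with reads, Fos, Fosl2 and Fosb, were each higher in replicate 1 than in replicate 2. Fos (ENSMUSG00000021250.13, mm10, chr12:85473890-85477273, plus strand, 4 annotated transcripts) encodes c-FOS, the prototype immediate early protein. It had 3760 and 1395 expected counts in replicates 1 and 2, or 121 and 40.7 TPM (81.0 ± 57.1 TPM, SD, n = 2). That put Fos above 98.2% of annotated protein-coding genes in replicate 1 and above 93.9% in replicate 2, so it was an abundant transcript in both libraries despite the gap between them. CPM are counts scaled to the library's total over genes that passed a filter on low counts, after normalisation by the TMM method. On that scale Fos had 180 and 74.1, a log2 ratio of replicate 2 to replicate 1 of -1.28. Log2 ratios hold a prior count of 2, a small number added to the counts. The 95% exact interval, taken from the scaled counts without that addition, was -1.37 to -1.19. These intervals cover counting error only, and they say nothing of how further replicates would vary.

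Fosl2 (ENSMUSG00000029135.10, chr5:32135801-32157842, plus strand) encodes FRA-2, a FOS relative without the strong transactivation domain of c-FOS. It had 1224 and 197 expected counts, or 14.5 and 2.12 TPM (8.29 ± 8.73 TPM, SD, n = 2). Replicate 2 was 5.56-fold lower on the CPM scale, a log2 ratio of -2.47 with an interval of -2.71 to -2.27. Fosb (ENSMUSG00000003545.3, chr7:19302696-19310051, minus strand) encodes FOSB, another early-response FOS protein. It had 336 and 20 expected counts, or 4.98 and 0.27 TPM (2.63 ± 3.33 TPM, SD, n = 2). Its CPM was 16.1 and 1.06, and its log2 ratio, made smaller in size by the prior count, was -3.80. The interval, without the prior count, was -4.65 to -3.27. Fosb thus had the widest gap of the members, and its value in replicate 2 rests on few reads.

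Fosl1 (ENSMUSG00000024912.6, chr19:5447547-5455946, plus strand), which encodes FRA-1, had 0 expected counts in both libraries. At this depth 0 counts allow a share of up to 1.49e-05% of all counts in replicate 1 and 1.53e-05% in replicate 2, the shares that 3 counts would have. The deposited posterior mean TPM of Fosl1, an estimate that does not reach 0 without reads, was 0.56 and 0.42. In replicate 2 that figure was above the posterior mean of Fosb, 0.39 TPM, although Fosb had reads and Fosl1 had none. Ccdc85b, which overlaps Fosl1 on the opposite strand, had 37 counts in each library.

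JUN subfamily genes were high in both libraries and somewhat higher in replicate 2 in TPM and CPM, whereas their summed kallisto-layout TPM, from a second quantification, was lower there (172 and 50.5). In that table every member with reads had a lower TPM in replicate 2, and rescaled by TMM its counts gave the JUN genes the same direction as here. Junb (ENSMUSG00000052837.6, chr8:84974484-84978718, minus strand) encodes JUNB, a JUN protein that can restrain c-JUN in some settings. It had 5597 and 7273 expected counts, or 177 and 208 TPM (193 ± 21.7 TPM, SD, n = 2), ranks 223 and 166 among annotated protein-coding genes. Jun (ENSMUSG00000052684.4, chr4:95049034-95052222, minus strand, 1 exon) encodes c-JUN, the substrate after which the JNK kinases are named. It had 3820 and 6014 expected counts, or 64.8 and 92.0 TPM (78.4 ± 19.3 TPM, SD, n = 2). Jund (ENSMUSG00000071076.6, chr8:70698949-70700616, plus strand, 1 exon) encodes JUND, the JUN protein known for steady expression in resting cells. It had 930 and 1116 expected counts, or 32.4 and 34.6 TPM (33.5 ± 1.60 TPM, SD, n = 2). Among the 3 genes Jund thus had the lowest level and the closest replicates.

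On the CPM scale replicate 2 exceeded replicate 1 by a log2 ratio of 0.80 for Jun (interval 0.75 to 0.86), 0.53 for Junb (0.48 to 0.58) and 0.41 for Jund (0.29 to 0.54). None of these reached 2-fold. The ratios between JUN genes within a library were steadier than those between subfamilies. In TPM, Junb exceeded Jun by a log2 ratio of 1.45 in replicate 1 and 1.18 in replicate 2, and Jund by 2.45 and 2.59. Jun against Fos was instead -0.91 in replicate 1 and 1.18 in replicate 2, so these 2 genes changed order.

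Genes on the opposite strand overlap all 3 JUN loci, and no source used here gives the strand setting of the counting, so reads of such pairs may not be separable. Junos, antisense to Jun, had 19.2 and 41.1 counts, 0.503% and 0.683% of the counts of Jun. Prdx2, a peroxiredoxin gene that overlaps Junb, had 443 and 437 counts, 7.91% and 6.02% of those of Junb. Gm11175, antisense to Jund, had 1.63 and 34.7 counts, 0.175% and 3.11% of those of Jund. Each of these partners held far fewer counts than the JUN gene it overlaps.

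Of the other bZIP members, Atf3 and Batf were higher in replicate 2, as the JUN genes were, and Maff had similar levels in both libraries. Atf3 (ENSMUSG00000026628.13, chr1:191170296-191218039, minus strand) encodes a stress-induced factor known to restrain TLR-driven cytokine transcription in macrophages. It had 1830 and 2710 expected counts, or 52.2 and 69.3 TPM (60.7 ± 12.0 TPM, SD, n = 2). Batf (ENSMUSG00000034266.6, chr12:85686669-85709087, plus strand) encodes a short factor that pairs with JUN proteins and cooperates with IRF factors. It had 279 and 405 expected counts, or 23.1 and 31.5 TPM (27.3 ± 5.93 TPM, SD, n = 2). Their log2 ratios on the CPM scale were 0.72 (interval 0.63 to 0.80) and 0.68 (0.46 to 0.91). Atf3 exceeded Batf by a log2 ratio of 1.18 in replicate 1 and 1.14 in replicate 2, in TPM, so this pair kept nearly the same proportion.

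Maff (ENSMUSG00000042622.14, chr15:79346621-79359076, plus strand) encodes a small MAF protein, which lacks a transactivation domain of its own. It had 221 and 179 expected counts, or 8.09 and 6.15 TPM (7.12 ± 1.37 TPM, SD, n = 2). Its log2 ratio of -0.15 had an interval of -0.45 to 0.14, so a difference between the replicates was not detectable at this depth.

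Of the 9 members that passed the filter on low counts, 3 were at least 2-fold lower in replicate 2 (Fos, Fosl2 and Fosb), against 2.55% of the 14498 genes tested in the same way. None was 2-fold higher, against 4.35% of genes tested. On the log2(TPM + 1) scale the lower and higher shares of genes were 2.83% and 0.966%, so the balance of the background turned with the scaling. Among genes with a mean count from 100 to 10000, a range that holds all 9, 1.33% were 2-fold lower and 2.87% were 2-fold higher. A limit of 5-fold, which was chosen after the values were seen, was passed by Fosb and Fosl2 and by 0.069% of genes tested. Of the genes tested, 134 had a lower ratio than Fos, 6 a lower one than Fosl2 and 0 a lower one than Fosb. Over the alternatives tried these counts ranged from 51 to 964 for Fos, 6 to 62 for Fosl2 and 0 to 11 for Fosb. The highest of each came with kallisto-layout counts or without the filter. Those settings held more genes, 22755 and 22876 in turn, so their counts are not on the same base as the others. The median log2 ratio of the 9 members was 0.41, and that of the 7 macrophage markers, all above 0, was 0.36. Over all genes tested the median was 0.00, and 95% of the ratios lay from -1.003 to 1.23. The FOS genes were thus at the low edge of that distribution or beyond it, and the JUN genes, Atf3, Batf and Maff were within it. The libraries also differed in starting amount (500 ng and 1 µg) and in mitochondrial share (5.88% and 3.50%), whose part in these ratios was not tested.

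**Figure D2:**
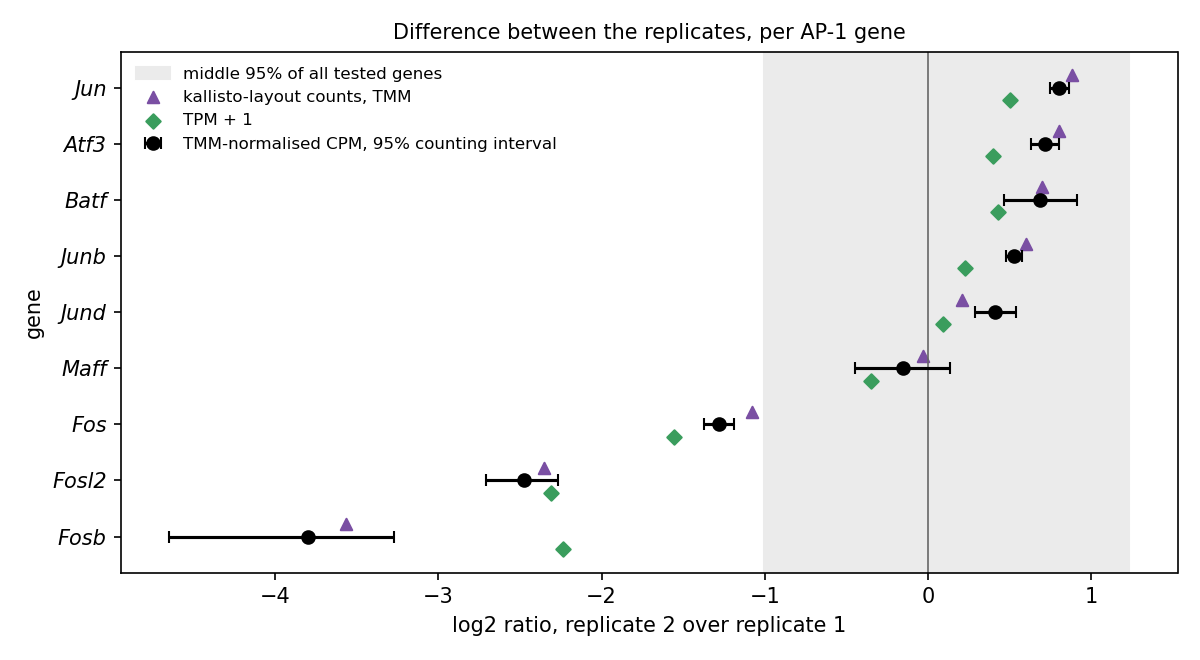
Log2 ratio of replicate 2 to replicate 1 in TMM-normalised CPM for the 9 AP-1 genes that passed the filter, with 95% exact intervals for counting error as bars, the same ratio from kallisto-layout counts (triangles) and from TPM + 1 (diamonds), and the middle 95% of all 14498 genes tested as a grey band. Fosb (-3.80), Fosl2 (-2.47) and Fos (-1.28) lie below the band and the other members lie inside it.

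Summed over subfamilies in TPM, the JUN genes exceeded the FOS genes in both libraries, by amounts that differed greatly. The FOS genes summed to 141 and 43.1 TPM in replicates 1 and 2, and the JUN genes to 274 and 335 TPM. JUN over FOS was 1.95 in replicate 1 and 7.77 in replicate 2, a log2 ratio of 1.96 ± 1.41 (SD, n = 2). The sum of all 10 members was 499 and 485 TPM, but its steadiness depends on the scale, since the sum was 862 and 1026 in CPM and 320 and 76.9 in kallisto-layout TPM. FOS genes made up 28.2% of the TPM sum in replicate 1 and 8.88% in replicate 2, and JUN genes 55.0% and 69.1%. Fos accounted for 86.2% and 94.4% of the FOS sum, and Junb for 64.6% and 62.2% of the JUN sum. The proportions are those of RNA in this fraction, and protein was not measured.

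**Figure D3:**
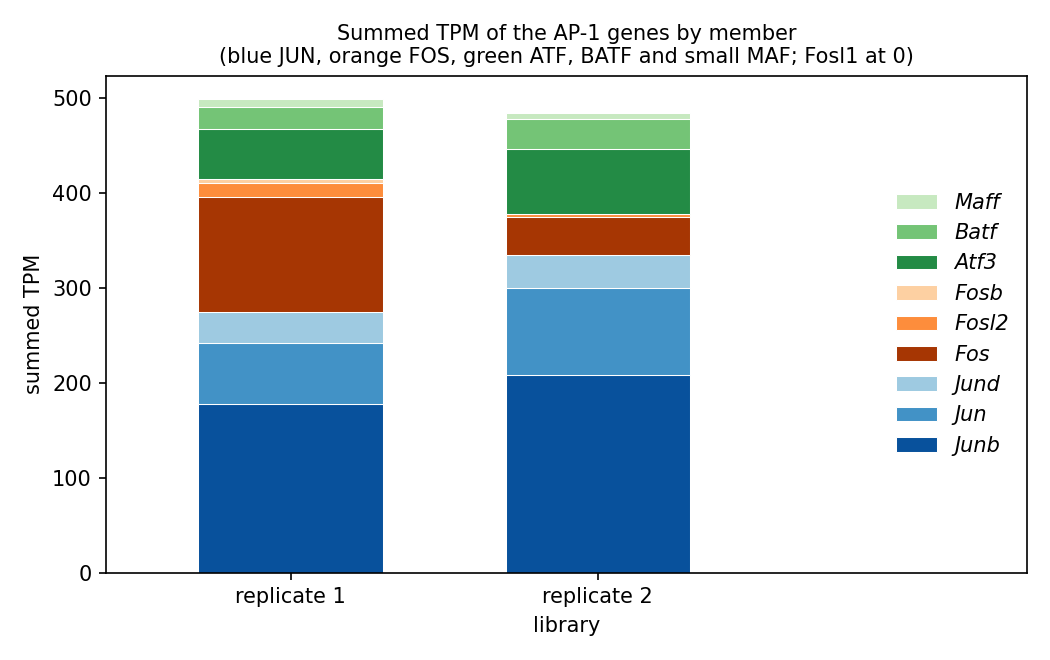
TPM of the AP-1 genes stacked by member in replicate 1 and replicate 2, with JUN genes in blue, FOS genes in orange and Atf3, Batf and Maff in green. The FOS sum is 141 and 43.1 TPM and the JUN sum 274 and 335 TPM.

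At the level of transcripts, the main coding form held most of the TPM of Fos, Junb, Atf3 and Batf in both libraries. No single coding form did so for Fosl2, Fosb or Maff. Fos-201, which encodes 380 codons over 4 exons, had 91.0 and 30.2 TPM, and Fos-203, a processed transcript of 795 bases without an annotated reading frame, had 29.8 and 8.23 TPM. Transcripts that are not annotated as coding made up 25.0% and 25.6% of the TPM of Fos (25.3 ± 0.414%, SD, n = 2). By expected counts, which are not divided by length, their share was 9.24% and 9.34%. In the kallisto-layout table the share was higher and differed more between the libraries, at 34.9% and 43.3% by TPM and 14.6% and 19.6% by counts.

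Fosl2 had most of its TPM in noncoding forms, 61.2% and 59.4% (60.3 ± 1.25%, SD, n = 2). Fosl2-202, a retained-intron transcript of 3472 bases in 1 exon, had 7.38 and 0.94 TPM, and Fosl2-201, the coding form of 326 codons, had 5.61 and 0.86 TPM. Whether reads given to Fosl2-202 and to the other retained-intron forms below came from RNA not yet spliced was not tested. By expected counts the noncoding share was 42.5% and 39.6%, so on that measure Fosl2-201 held the larger part in both libraries. Among 9165 protein-coding genes with an annotated noncoding transcript, 19.5% held over 50% of their TPM in such forms in both libraries, and Fosl2 was the only member that did. The median share over these genes was 29.4% in replicate 1 and 30.6% in replicate 2, so Fos was just under the median.

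The retained-intron transcript Batf-202, of 532 bases, had 6.95 and 13.3 TPM beside 16.2 and 18.2 TPM of the coding Batf-201. The noncoding share of Batf was 30.1% and 42.1% by TPM, and 15.4% and 24.7% by counts. The 95% Wilson intervals of the latter were 11.6 to 20.1% and 20.7 to 29.1%, which lie close together without overlapping. They treat expected counts as whole reads and leave out the error of dividing reads between Batf-201 and Batf-202. They therefore cannot decide whether the shares of the libraries differed. By kallisto-layout counts the share was also higher in replicate 2, with a smaller gap between the libraries, and no interval was computed. Fosb had 26.2% and 70.4% by TPM and 26.3% and 70.6% by counts. The value of replicate 2 rests on 20 counts, of which 14 went to the retained-intron form Fosb-204, and its Wilson interval was 48.1 to 85.5%. Fosb-201, the form with the longest frame (338 codons), and Fosb-206, with 237 codons, both had 0 expected counts in each library. Kallisto-layout counts gave Fosb-201 5.82 in replicate 1 and Fosb-206 0.68 in replicate 2. The coding expected counts of replicate 1 were divided among Fosb-202, Fosb-203, Fosb-205 and Fosb-207. In replicate 2 they were all in Fosb-205, with 5.88 expected counts. Division among such overlapping forms is uncertain, as Maff showed. Maff-203 held 132 and 16.3 expected counts and Maff-202 held 0 and 25.6, whereas the kallisto-layout table gave the latter 261 and 114 counts. Junb had a noncoding share of 0% and 1.27%, and Jun, Jund, Atf3 and Maff had 0% in both libraries.

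**Figure D4:**
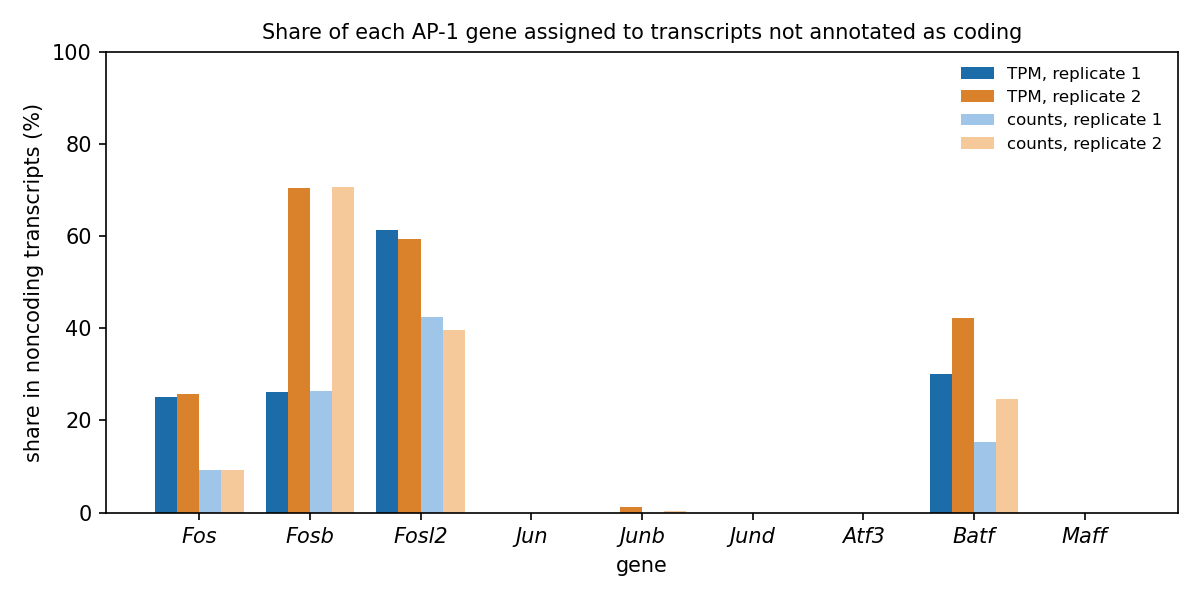
Bars give the share of each gene, in percent, in transcripts not annotated as coding, by TPM (dark) and by expected counts (light) in each library, for the members with reads. By TPM Fosl2 has 61.2% and 59.4%, the bars of Fos are nearly equal (25.0% and 25.6%), and those of Fosb (26.2% and 70.4%) differ most.

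The 3′ untranslated regions (UTRs) are shown because AU-rich elements in them, bound by proteins such as the one encoded by Zfp36, are known to shorten the lives of early-response mRNAs. One 30-base stretch each is given from the GENCODE M21 transcripts in mm10, with the pentamer ATTTA in capitals.
Fos (chr12:85477102-85477131, plus strand): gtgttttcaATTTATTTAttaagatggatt
Fosl2 (chr5:32156870-32156899, plus strand): cATTTAttttattATTTAttttaaatgttt
Maff (chr15:79358777-79358806, plus strand): cttccacactcttATTTAttgcacgaatct
Jun (chr4:95049079-95049108, minus strand): tttgcttgtgcatATTTAtaatagcgttcg
ATTTA was found in 9 of the 10 members, all but Batf, and in 69.1% of 11189 tested coding genes with a 3′ UTR of at least 30 bases. The longer TATTTAT was in 8 members, all but Junb and Batf, and in 29.5% of genes. The nonamer TTATTTATT, which contains both, was in Fos, Fosl2 and Maff and in 7.83% of genes. Fos had 4 ATTTA in 815 bases, or 4.91 per kilobase beside a median of 1.32 over these genes, and Fosl2 had 8 in 4653 bases. Jun had 4 in 1233 bases, Atf3 3 in 1186 and Junb 2 in 485. Fos thus had the denser run of pentamers and Fosl2 the longer UTR. Fosb had 1 in 2139 bases.

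Genes around AP-1 are given from 5 further lists, again as counts of genes past 2-fold on the CPM scale. Each count is to be read beside all genes tested, of which 2.55% were 2-fold lower and 4.35% 2-fold higher in replicate 2. At 1 TPM or more in both libraries were 44.9% of annotated protein-coding genes. Of 19 other bZIP partners 18 were at 1 TPM or more in both libraries, and of the 19 tested 4 were 2-fold higher and 0 were 2-fold lower in replicate 2. Nfe2l2, which encodes the oxidative stress factor NRF2, had 230 and 138 TPM, and Maf, which encodes c-MAF, had 175 and 123 TPM. The 4 higher genes, named after their values were seen, were Bach2 (log2 ratio 1.64), Batf2 (1.64), Cebpb (1.18) and Batf3 (1.07). Bach2 (16.4 and 48.7 counts, 0.10 and 0.32 TPM) and Batf3 (27 and 53 counts, 3.34 and 3.85 TPM) rest on few reads. Batf2 had 310 and 872 counts, or 19.3 and 47.3 TPM. Batf itself, at 0.68, was not past 2-fold, and whether the ratio of Batf3 differs from it was not tested.

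Among 17 genes of the MAP kinase input 16 were at 1 TPM or more in both libraries, and of the 17 tested 1 was 2-fold higher (Rps6ka4, log2 ratio 1.06, named after its value was seen) and 0 were lower. Map3k8, the kinase TPL2 that feeds ERK downstream of TLR4, had 58.8 and 78.4 TPM, and Mapkapk2, the p38 effector kinase MK2, had 56.9 and 62.0 TPM. SRF acts on the serum response element of Fos. All 6 genes for SRF and its cofactors were at 1 TPM or more in both libraries, and 0 passed 2-fold in either direction. Elk4 had 42.4 and 36.1 TPM (log2 ratio -0.14) and Mrtfa 22.7 and 35.8 TPM (0.44). None of the 6 had a gap between replicates as wide as that of Fos.

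The next list holds 14 genes for proteins that remove phosphate from MAP kinases or alter the stability of mRNA or protein. Of these, 12 were at 1 TPM or more in both libraries. Of the 14 tested, 1 was 2-fold lower (Dusp5, log2 ratio -1.29, named after its value was seen) and 0 were higher. Zfp36 had 369 and 326 TPM and Dusp1, a MAP kinase phosphatase and itself an early-response gene, 146 and 99.6 TPM. Their log2 ratios on the CPM scale, 0.10 and -0.18, were close to the median of all genes.

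Of 16 genes with AP-1 sites known from textbooks 13 were at 1 TPM or more in both libraries. Of the 14 tested, 4 were 2-fold lower and 0 were higher in replicate 2. Over all genes tested the lower share was 2.55% on the same CPM scale. It was 7.37% on the log2(TPM + 0.1) scale, on which this list was not counted. Tnf had 441 and 456 TPM and Cxcl2, a neutrophil chemokine gene, 331 and 140 TPM. The 4 lower genes, named after their values were seen, were Mmp12 (log2 ratio -1.54), Ptgs2 (-1.21), Il6 (-1.12) and Il1b (-1.11). The median log2 ratio of the list was -0.62, the lowest of the lists. Tnf did not share that direction, with 0.37. Fos and Fosl2 were low in the same replicate as these 4 genes, and with 2 libraries any pair of genes must move together or apart, so nothing particular to AP-1 can be read from it.

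**Figure D5:**
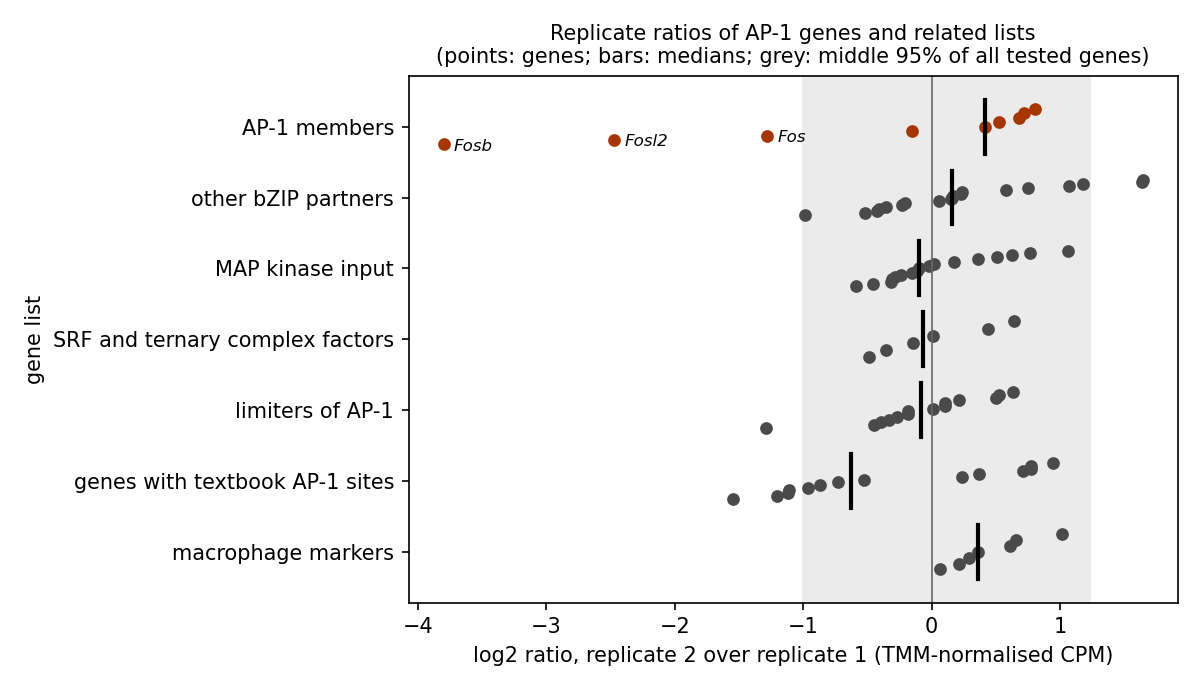
Log2 ratio of replicate 2 to replicate 1 in TMM-normalised CPM for each tested gene (points) of the AP-1 genes, the 5 related lists and the macrophage markers, with the median of each list as a bar and the middle 95% of all genes tested in grey. The medians run from -0.62 for genes with textbook AP-1 sites to 0.41 for the AP-1 genes, whose points reach lowest at -3.80.

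The genes whose levels in both libraries were closest to those of 2 members were sought among 11383 protein-coding genes with at least 10 counts in each library, by distance in log2(TPM + 1) over the 2 libraries. Among the nearest to Junb were Slc3a2 (183 and 205 TPM, distance 0.0480) and Abcc5 (179 and 201 TPM, 0.0487). Nearest to Fosb were Scd1 (4.62 and 0.64 TPM, distance 0.380), Esrp2 (3.76 and 0.47 TPM, 0.391) and Diaph3 (3.31 and 0.61 TPM, 0.583). Fosb thus had no neighbour as close as Junb had. A likeness over 2 libraries is a weak description, since many genes can share a pair of levels.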

How the data were processed

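Gene and transcript tables of 2 libraries were read. The deposited expected counts and TPM were made by the authors from alignments to mm10 transcripts of GENCODE M21, per the deposited file notes. A posterior mean TPM accompanies them, and its interval bounds, a signal-type value per the file headers, were read but decide no result. Kallisto-layout tables hold estimated counts and TPM made by the authors directly from reads. Which programs and strand setting were used is not given in the sources used here.

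Members were matched by symbol, and coordinates, biotypes and UTRs came from GENCODE M21. Expected counts were rounded, filtered (filterByExpr, minimum count 10) and normalised with TMM in edgeR 4.0.16 under R 4.3.3. Log2 CPM had a prior count of 2, which understates ratios of low genes. Python 3.11.15, pandas 2.3.3 and scipy 1.17.1 gave sums, ranks and intervals, namely exact (Clopper-Pearson) ones for ratios and Wilson ones for shares. Entries with no annotated gene (0.282% and 0.0640% of counts) stayed out of tests and out of the totals behind CPM. Those totals were taken over the genes that passed the filter. The totals of expected counts given at the start, and shares of all counts, include such entries. The ratio computation was checked on simulated data. No p-value was computed. Alternatives were DESeq2 1.42.0 size factors, log2 TPM with pseudocounts of 1 and 0.1, no filter, other TPM estimates and leaving out each library.

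The members and the lists of 99 genes were chosen with earlier results of these data known. All 10 members were named, with the 2 genes of highest mean TPM in each other list and the 3 genes nearest to the member of highest mean TPM and to the member of largest ratio. One of the genes so chosen is not reported here.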

Additional observations from a re-analysis of the deposited data

How the results depend on the processing

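The median level of the 10 members, 30.4 TPM, was 89.7 TPM when rescaled to protein-coding genes, 14.7 TPM in the kallisto-layout tables and 93.8 TPM when those were rescaled too, an alternative chosen after seeing the data. The median replicate ratio, 0.41, was 0.21 with kallisto-layout counts, 0.0971 with log2(TPM + 0.1) and 0.0946 with log2(TPM + 1), a scale on which the median of all genes tested was -0.21. The mean noncoding share, 19.0%, was 13.2% by expected counts. The largest ratio, -3.80 for Fosb, was -2.31 with log2(TPM + 1), where it belonged to Fosl2. The cause of these moves was not tested. Leaving out each library in turn gave 27.7 to 33.1 TPM for the median level, 8 to 9 members at 1 TPM or more, 0.96 to 2.96 for log2 JUN over FOS and 15.8 to 22.1% for the noncoding share. In kallisto-layout TPM, not rescaled, the FOS sum was 88.2 and 7.80 and the JUN sum 172 and 50.5, so the JUN sum was there lower in replicate 2, with JUN over FOS at 1.95 and 6.48. Under all 5 alternatives for the ratio, 3 members stayed 2-fold lower and 0 higher, and all 45 ratios of single members kept their sign. The shares of all genes 2-fold lower and higher were 2.59% and 4.28% with DESeq2 size factors, 7.37% and 2.08% with log2(TPM + 0.1), 5.17% and 3.83% with kallisto-layout counts and 5.67% and 11.1% without the filter. The mean noncoding share of Fos, 25.3%, was 39.1% in kallisto-layout TPM. No paired analysis was possible because there is 1 group, so no groups share replicate numbers. Leaving out a library gives no replicate ratio. Depth limits Fosb in replicate 2 (20 counts) and Fosl1 (0 counts).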
